A study of Rattus norvegicus with 9 samples.

Results

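Kidneys of rats given deoxycorticosterone acetate (DOCA) together with finerenone were set against kidneys of sham-operated rats, to see what still differed from the sham kidney under the drug. The readout was single-nucleus ATAC-Seq (snATAC-Seq), which records open chromatin one nucleus at a time. Members were the libraries whose deposited treatment reads Finerenone or Control, which gave 4 of the 9 libraries of the study and 15499 of its 53298 nuclei. Of these, 7949 nuclei came from Finerenone and 7550 from Control.

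All rats were male Sprague-Dawley animals, and 6 weeks stands under age in the labels of each sample. The study's methods use the same number of weeks for the time from the first DOCA injection to the end of treatment, so it may not be the age of the animals. Control rats kept both kidneys after sham surgery and were given the oil vehicle of DOCA without added salt. Finerenone rats had lost the left kidney, were injected weekly with DOCA (50 mg/kg), drank salt water and were given finerenone (10 mg/kg/d) by gavage. DOCA rats had the same operation, injections and salt with vehicle in place of the drug, and are quoted below for reference and, for podocytes and macrophages, as a second contrast. Finerenone and Control therefore differ in nephrectomy, DOCA, salt and drug at once, and the parts of these in any difference cannot be told apart. Whole kidney was used, and each group had 1 library of a single-cell ATAC kit (scATAC) and 1 of a Multiome kit, which reads RNA and chromatin from the same nucleus. Whether the 2 libraries of a group came from separate rats is not stated, so the tests below measure the spread between libraries, which may be technical. The codes of the 2 DOCA libraries share their leading letters and numbers, and so do those of the 2 libraries of the study's Spironolactone group. The 2 Control codes share only the first part of theirs, and the 2 Finerenone codes differ. What the codes stand for is not stated.

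Mineralocorticoids act through the mineralocorticoid receptor, a nuclear hormone receptor that in the kidney drives sodium uptake in principal cells of the collecting duct and in neighbouring distal segments. An excess of hormone with salt raises blood pressure and damages glomeruli and proximal tubules, and macrophages and fibroblasts accumulate around the damaged tubules. Finerenone is a nonsteroidal blocker of that receptor.

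Each nucleus carries a cell type label from the deposited annotation, and 12 labels were used. Proximal convoluted tubule (PCT), proximal straight tubule (PST) and injured proximal tubule (iPT) formed the proximal tubule compartment. Loop of Henle (LOH), distal convoluted tubule (DCT), principal cells (PC) and intercalated cells (IC) formed the distal nephron. Endothelial cells (Endo), fibroblasts (Fibroblast), myofibroblasts (MyoFib), macrophages (Mac) and podocytes (Podo) formed the non-tubular compartment. The files used here hold no values per gene or peak, so the labels could not be checked against marker genes.

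The Control libraries held 2455 (scATAC) and 5095 (Multiome) nuclei, and the Finerenone libraries 1817 and 6132. Barcodes were shared by 5 to 13 nuclei between scATAC libraries, by 53 to 244 between Multiome libraries and by at most 1 between kits. Composition also differed between the libraries of the 2 kits, where kit cannot be told apart from preparation or animal. In limma the Multiome kit had lower log2 odds of a proximal tubule label by 1.47 and higher odds of a distal nephron label by 1.53 (both adjusted p = 0.00339), so values are given within each kit as well as over both. The Control Multiome library stood apart, since most of its iPT nuclei lay away from where that label lies in the Finerenone and DOCA libraries (described below), and results that rest on it are given with and without it.

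Over all nuclei, no cell type share of Finerenone passed the test against Control. The limma model, fitted to the log2 odds of each label in all 9 libraries with terms for group and for kit, called 0 of 12 cell types (0%) at an adjusted p of 0.05, and 1 of 12 had an unadjusted p under 0.05 (8.33%). That 1 was iPT. Each difference had a 95% interval, not adjusted for the 12 labels, of about 1.14 log2 units either way. Passing the adjusted threshold took a larger change than that, since iPT at 1.53 did not pass. A missed threshold therefore does not show that the groups are alike. The plot of shares by library shows how far the 2 kits of a group lay apart.

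**Figure D1:**
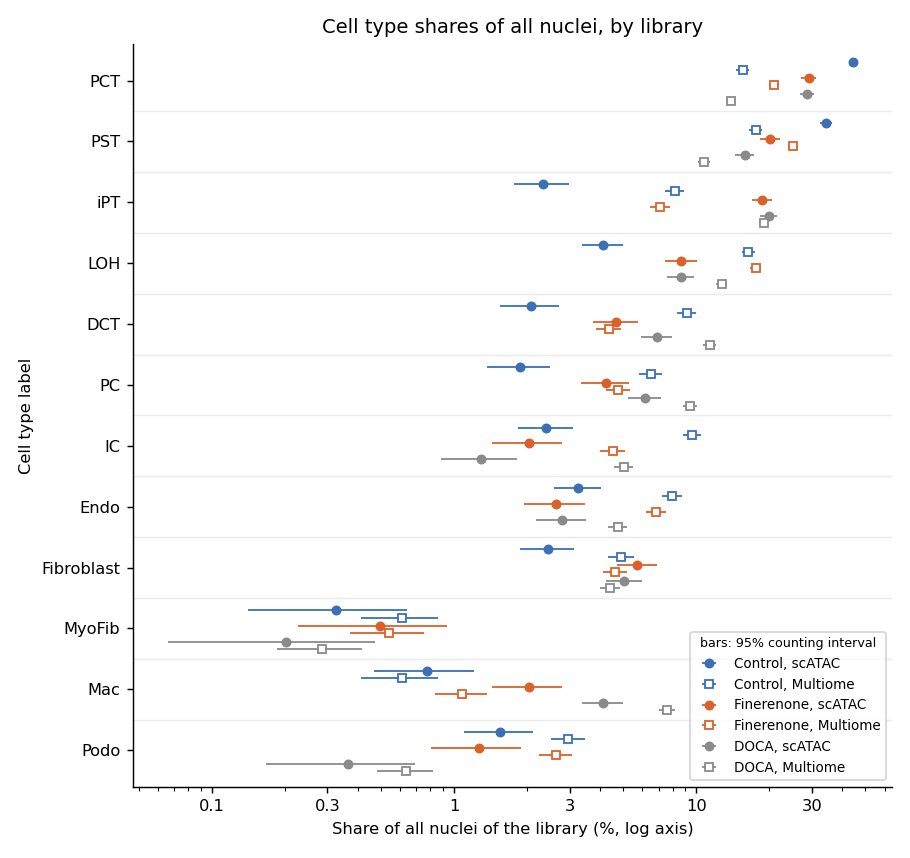
Share of all nuclei of a library with each cell type label (log axis, %) for Control, Finerenone and DOCA, with filled circles for scATAC libraries, open squares for Multiome libraries and bars for exact 95% counting intervals. Mac is the only label whose Finerenone values (1.08% and 2.04%) both lie above the Control values (0.608% and 0.774%).

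The compartments themselves came first. Proximal tubule labels took 81.2% (scATAC) and 41.3% (Multiome) of Control nuclei, and 68.2% and 53.0% of Finerenone nuclei in the same order of kits. The Finerenone libraries thus lay between the 2 Control libraries. Distal nephron labels took 10.5% and 41.7% of Control nuclei and 19.6% and 31.2% of Finerenone nuclei, again inside the Control range. Non-tubular labels took 8.35% and 17.0% of Control nuclei and 12.2% and 15.7% of Finerenone nuclei. All 3 compartments had opposite signs in the 2 kits, with a log2 odds ratio of the proximal tubule (Finerenone over Control) of -1.01 in scATAC and 0.68 in Multiome. Limma called 0 of 3 compartments (0%, and 0 at an unadjusted p under 0.05), with differences of -0.16 for proximal tubule, 0.20 for distal nephron and 0.24 for non-tubular labels (all adjusted p = 0.749). Without the Control Multiome library the 3 differences were -0.93, 0.93 and 0.67. Without the Control scATAC library they had the opposite signs, at 0.60, -0.52 and -0.19.

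Injured proximal tubule was the label with the largest estimated difference. PCT and PST reabsorb the bulk of filtered salt, glucose and amino acids, and the iPT label stands for injured nuclei of these segments. The iPT label took 2.32% of nuclei in the Control scATAC library and 8.15% in the Control Multiome library, against 18.8% and 7.09% in the Finerenone libraries. The scATAC values of the groups stood far apart, whereas the Multiome values lay close together with Finerenone the lower. The log2 odds ratio was 3.27 (95% counting interval 2.86 to 3.68) within scATAC and -0.22 (-0.42 to -0.014) within Multiome. Over both kits limma gave a difference of 1.53 (standard error 0.56, 95% interval 0.38 to 2.67), with an unadjusted p of 0.0103 and an adjusted p = 0.123, higher in Finerenone in 1 of 2 kits. In this family limma gave all 12 labels the same standard error, although the log2 odds ratios of the 2 kits lay farther apart for iPT than for any other label, and under 7 other settings the adjusted p of iPT ran from 0.115 to 0.874. With a fit of the 4 libraries alone the interval was -0.66 to 3.71. The call turned on single libraries. It was 2.75 (adjusted p = 0.000642) when the Control Multiome library was left out and 2.62 (adjusted p = 0.00783) when the Finerenone Multiome library was. It was 0.30 (adjusted p = 0.829) and 0.43 (adjusted p = 0.939) when the scATAC library of Control and of Finerenone was left out. Shares among proximal tubule nuclei alone leave out how much of the other segments was captured. For iPT the limma difference of these shares was 1.504 (-0.78 to 3.79, adjusted p = 0.322). It rose to 3.05 when the Control Multiome library was dropped. It turned to -0.042 when the Control scATAC library was dropped instead, so its size and sign depended on which Control library was kept.

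The deposited 2-dimensional map (UMAP, whose coordinates have no unit) showed that the iPT label was spread over more than 1 place. The main body lay above the PCT and PST nuclei. A patch lay apart on the left (UMAP_1 from -5 to -2.7), and a strip lay between patch and body (UMAP_1 from -2.7 to -1, UMAP_2 above -0.7). These borders were drawn after the map had been seen, so the shares by place are a description with no test. In the Control Multiome library 51.8% of the 415 iPT nuclei were in the patch, 33.7% in the strip and 10.6% in the body. In the Control scATAC library 63.2% of the 57 iPT nuclei were in the body. In the Finerenone libraries 83.0% of 341 (scATAC) and 67.4% of 435 (Multiome) iPT nuclei were in the body, and in the DOCA libraries 81.1% and 83.8%. The patch and the strip held 7.04% and 8.21% of the iPT nuclei of the Finerenone scATAC library, and 21.4% and 9.43% of those of the Finerenone Multiome library. The Control Multiome library thus carried the iPT label mainly outside the body, where a smaller share of the iPT nuclei of either Finerenone library lay. The Amiloride library of the study, whose code shares its leading letters and numbers with that of the Control Multiome library, had 45.7% of its 311 iPT nuclei in the patch.

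**Figure D2:**
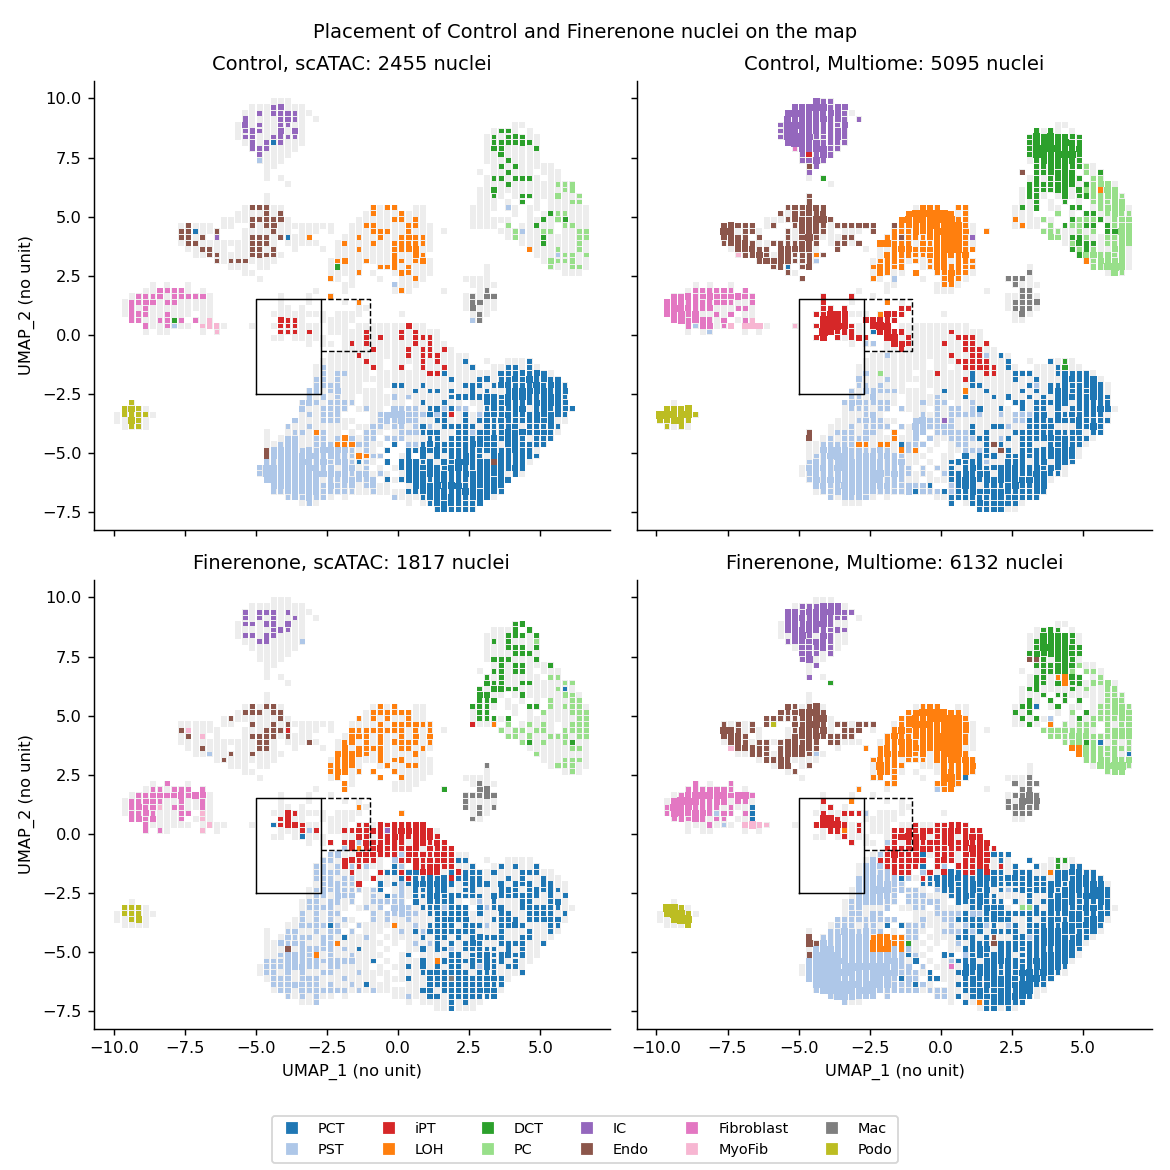
Nuclei of the 4 libraries on the deposited map (UMAP_1 and UMAP_2, no unit), drawn as squares that are coloured by the most frequent cell type label in each bin and grow with the number of nuclei, over the bins of all 4 libraries in grey. The solid box encloses the iPT patch and the dashed box the strip, which together hold most red squares of the Control Multiome library, while the red body right of them is filled in both Finerenone libraries.

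The body alone was then counted. Its borders leave out the places where most iPT nuclei of the Control Multiome library lay, so a low value of that library follows from the borders themselves. The iPT nuclei of the body made up 1.47% (1.03 to 2.02) of the Control scATAC nuclei and 0.864% (0.628 to 1.16) of the Control Multiome nuclei. They made up 15.6% (13.9 to 17.3) of the Finerenone scATAC nuclei and 4.78% (4.26 to 5.34) of the Finerenone Multiome nuclei. The mean of Control was 1.16% ± 0.426 (SD, n = 2), that of Finerenone 10.2% ± 7.63 (SD, n = 2), and that of DOCA 16.1% ± 0.134 (SD, n = 2). The Finerenone scATAC library was thus near the DOCA libraries (16.1% and 15.96%), whereas the Finerenone Multiome library lay between them and Control. In the patch the order was different. It held 0.489% and 4.22% of Control nuclei (scATAC, Multiome) and 1.32% and 1.52% of Finerenone nuclei. With the borders moved by 0.2 either way the body held between 1.43% and 1.59% (scATAC) and between 0.864% and 1.00% (Multiome) of Control nuclei, and between 14.7% and 16.2% and between 4.42% and 5.14% of Finerenone nuclei.

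The other proximal labels moved in opposite directions in the 2 kits. PCT took 44.6% and 15.6% of Control nuclei (scATAC, Multiome) and 29.2% and 20.9% of Finerenone nuclei. PST took 34.3% and 17.6% of Control nuclei and 20.2% and 25% of Finerenone nuclei. For both labels the Finerenone values lay inside the Control range. The limma difference was -0.22 for PCT (-1.36 to 0.92) and -0.20 for PST (-1.34 to 0.94), both with an adjusted p = 0.791. Among proximal tubule nuclei PST took 42.2% and 42.6% in Control, and 29.6% and 47.1% in Finerenone, 1 library below and 1 above the nearly equal Control values (-0.27, -1.15 to 0.62, adjusted p = 0.651). PCT took 54.9% and 37.7% of proximal tubule nuclei in Control and 42.9% and 39.5% in Finerenone (-0.29, -1.06 to 0.47, adjusted p = 0.575). The number of PCT nuclei per PST nucleus, which depends on no other label, was 1.299 and 0.885 in Control and 1.45 and 0.838 in Finerenone. That ratio followed the kit, and its limma difference was 0.04 (-0.60 to 0.67, adjusted p = 0.904).

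**Figure D3:**
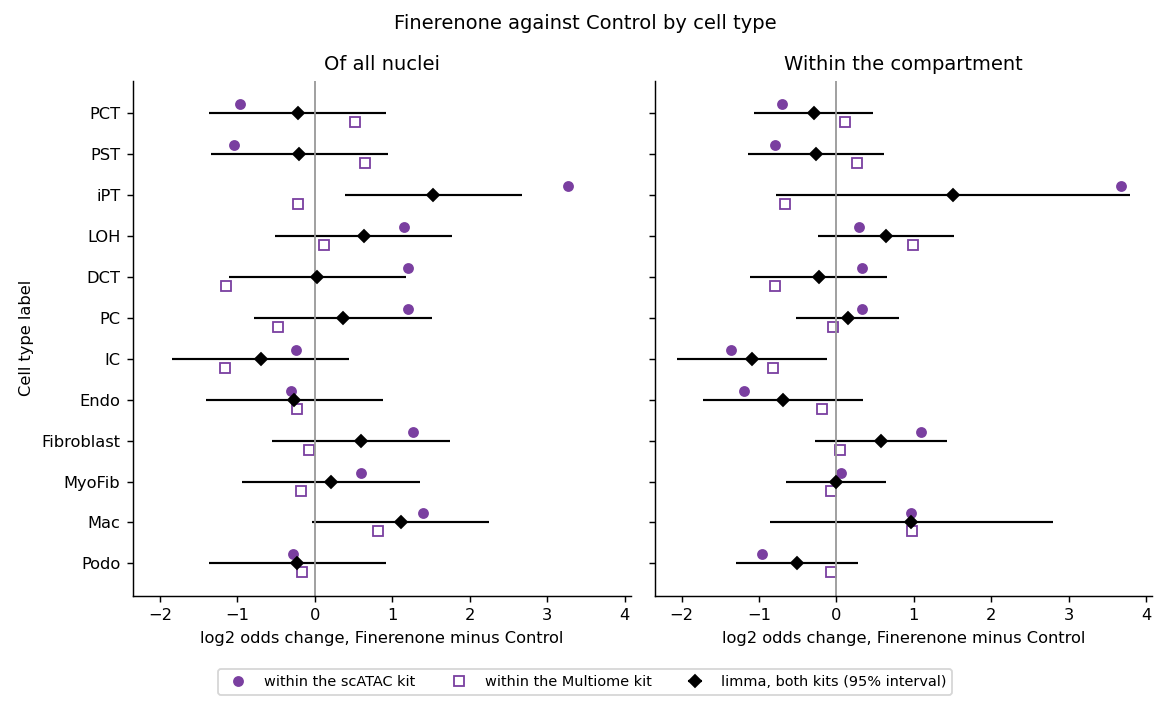
Finerenone minus Control in log2 odds of each label, over all nuclei (left) and within the compartment (right), with diamonds and bars for the limma difference and its 95% interval over both kits, circles for the ratio within scATAC and squares for that within Multiome. The scATAC and Multiome values of iPT lie on opposite sides of 0 in both panels, while both values of Mac lie above 0 and both of IC below 0.

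In the distal nephron, IC were the label with the lowest p of the 4, and their share was lower in both Finerenone libraries. IC secrete acid or base, PC reabsorb sodium under mineralocorticoid control, DCT reabsorbs sodium chloride through a thiazide-sensitive carrier, and LOH dilutes the tubular fluid and builds the medullary gradient. Within compartments the Finerenone and Control libraries did not overlap for 4 of 12 labels (33.3%), which were IC and Podo (lower in Finerenone) and LOH and Fibroblast (higher in Finerenone), although for Podo, LOH and Fibroblast 1 kit differed by less than counting error. A count of this size can arise with 2 libraries a side when groups do not differ. Limma called 0 of 12 (0%), with 1 of 12 at an unadjusted p under 0.05 (8.33%).

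IC made up 23.0% (scATAC, 59 nuclei) and 23.1% (Multiome, 490 nuclei) of distal nephron nuclei in Control, against 10.4% (37 nuclei) and 14.5% (278 nuclei) in Finerenone. The Control libraries were nearly equal and both Finerenone libraries lay below them. The log2 odds ratio was -1.36 (95% counting interval -2.00 to -0.71) within scATAC and -0.82 (-1.05 to -0.58) within Multiome. In limma the difference was -1.09 (standard error 0.39, 95% interval -2.05 to -0.12), with an unadjusted p of 0.0332 and an adjusted p = 0.322, lower in Finerenone in 2 of 2 kits. It kept its sign without each of the 9 libraries in turn (-1.40 to -0.77, adjusted p from 0.134 to 0.765) and under 7 other settings (adjusted p from 0.206 to 0.494), none of which called it. In the DOCA libraries IC made up 5.63% and 13.01% of distal nephron nuclei, and the DOCA minus Control difference, which shares the Control libraries, was -1.65 (-2.62 to -0.69). Between Finerenone and DOCA the difference was 0.57 (-0.40 to 1.53, adjusted p = 0.293). Of all nuclei IC took 2.40% and 9.62% in Control and 2.04% and 4.53% in Finerenone, which overlapped (-0.70, -1.84 to 0.44, adjusted p = 0.716).

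PC showed no such separation. They made up 17.9% and 15.6% of distal nephron nuclei in Control (scATAC, Multiome) and 21.6% and 15.2% in Finerenone, a difference of 0.14 (-0.52 to 0.81, adjusted p = 0.673). The number of PC nuclei per IC nucleus was 0.780 and 0.676 in Control and 2.08 and 1.05 in Finerenone, so that IC outnumbered PC in both Control libraries and in neither Finerenone library. This was 1 of 2 among 8 ratios of paired labels whose libraries did not overlap (25%), the other being MyoFib per Fibroblast, and limma called 0 of 8 (0%), with 1 of 8 at an unadjusted p under 0.05 (12.5%). PC per IC was that 1, at 1.02 (0.06 to 1.97, unadjusted p = 0.0413, adjusted p = 0.33), higher in 2 of 2 kits. With libraries left out it ran from 0.67 to 1.36 (adjusted p from 0.104 to 0.733). DOCA libraries had 4.75 (scATAC) and 1.88 (Multiome) PC per IC.

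LOH made up 39.3% and 39.4% of distal nephron nuclei in Control and 44.3% and 56.3% in Finerenone. The Control values were again nearly equal and both Finerenone values were higher, although the scATAC difference (log2 odds ratio 0.29, -0.18 to 0.76) was within counting error and the Multiome difference (0.99, 0.81 to 1.17) was not. The limma difference was 0.64 (-0.24 to 1.52, adjusted p = 0.322). DOCA libraries, at 37.7% and 33.1%, lay on the other side of Control. DCT made up 19.8% and 21.9% in Control and 23.8% and 13.9% in Finerenone, with opposite signs in the 2 kits (-0.23, -1.11 to 0.65, adjusted p = 0.655).

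**Figure D4:**
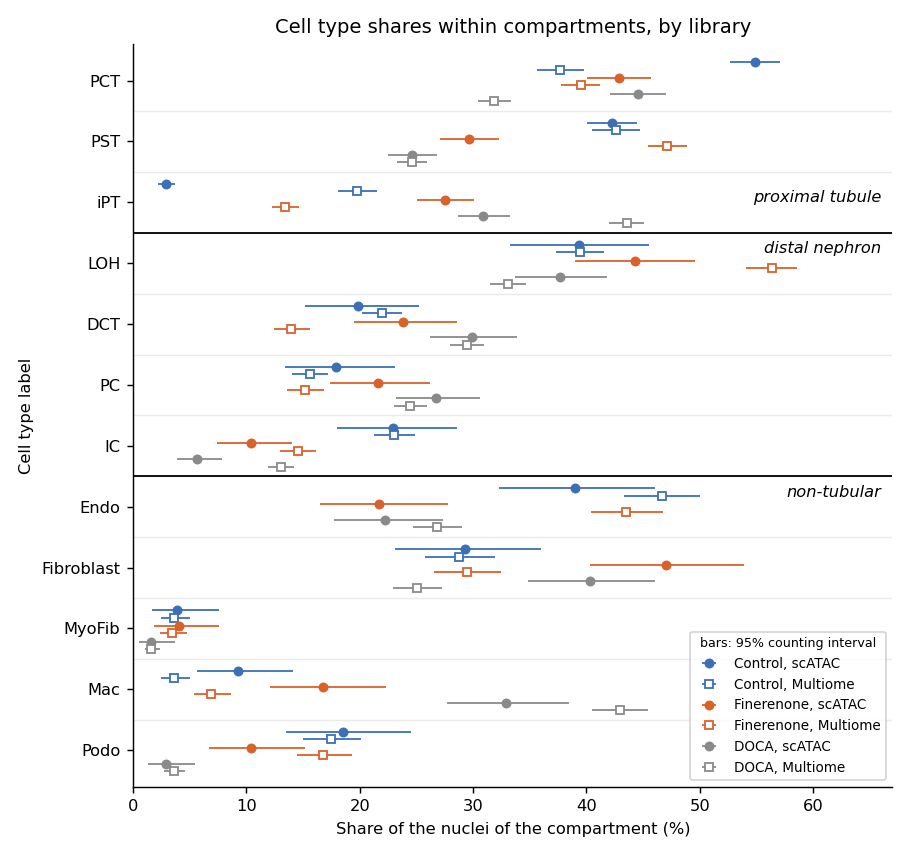
Share of each label among the nuclei of its compartment (%) for Control, Finerenone and DOCA, with filled circles for scATAC libraries, open squares for Multiome libraries and bars for exact 95% counting intervals. IC lie at 23.0% and 23.1% in Control against 10.4% and 14.5% in Finerenone, and Podo in Finerenone (10.4% and 16.8%) lie above both DOCA values (2.90% and 3.59%) and below both Control values (18.5% and 17.4%).

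Podocytes, which form the filtration slits of the glomerulus, were close to the Control level over all nuclei. They took 1.55% (1.098 to 2.12, 38 nuclei) and 2.96% (2.52 to 3.47, 151 nuclei) of the Control scATAC and Multiome nuclei. They took 1.27% (0.804 to 1.89, 23 nuclei) and 2.64% (2.25 to 3.07, 162 nuclei) of the Finerenone nuclei. The counting intervals of the groups overlapped within each kit. The limma difference was -0.23 (-1.37 to 0.92, adjusted p = 0.791), lower in Finerenone in 2 of 2 kits. Among non-tubular nuclei, podocytes made up 18.5% and 17.4% in Control and 10.4% and 16.8% in Finerenone, which did not overlap (-0.51, -1.30 to 0.27, adjusted p = 0.322). The scATAC kit gave the wider gap (-0.96, -1.75 to -0.16), and the Multiome values differed by less than counting error (-0.07, -0.42 to 0.28). Of the podocyte nuclei of the Control Multiome library 9 lay beside the iPT patch or strip, and without these its share was 16.6% (142 of 857 nuclei), below the 16.8% of the Finerenone Multiome library, so that the groups overlapped. No other library had such nuclei, so leaving them out could only lower that Control value, and the count, added after the map had been seen, is a description.

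Set against DOCA, podocytes were more frequent and macrophages less frequent in the Finerenone libraries over all nuclei. Podocytes took 0.364% (9 nuclei) and 0.634% (58 nuclei) of the DOCA nuclei, and limma gave a Finerenone minus DOCA difference of 1.92 (standard error 0.56, 95% interval 0.78 to 3.07, adjusted p = 0.00977), higher in 2 of 2 kits. Macrophages took 4.13% and 7.58% of the DOCA nuclei against 2.04% and 1.08% of the Finerenone nuclei, a difference of -1.97 (-3.12 to -0.83, adjusted p = 0.00977), lower in 2 of 2 kits. These were the 2 of 12 labels that limma called over all nuclei in that contrast (16.7%). Neither passed without either DOCA library or the Finerenone Multiome library (adjusted p from 0.0857 to 0.548 for Mac and from 0.221 to 0.351 for Podo), nor without a kit term, with trended and robust variance or on the arcsine scale (adjusted p from 0.115 to 0.205 for Mac and from 0.0854 to 0.235 for Podo).

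Among non-tubular nuclei podocytes of the Finerenone libraries were also more frequent than in DOCA. Macrophages made up 32.9% and 42.9% of that denominator in DOCA against 16.7% and 6.84% in Finerenone (-2.31, adjusted p = 0.0852), and the share of every other label in it depends on theirs. For podocytes DOCA libraries had 2.90% and 3.59%, and the Finerenone minus DOCA difference was 2.17 (standard error 0.32, 95% interval 1.39 to 2.95, adjusted p = 0.00612 by limma), higher in 2 of 2 kits. Limma called 2 of 12 labels within compartments in that contrast (16.7%), the other being MyoFib at 1.21 (adjusted p = 0.0231), a label of 5 to 33 nuclei a library in these groups. On the map, the MyoFib nuclei of the Finerenone scATAC library lay partly among Fibroblast nuclei (described below). Without the DOCA scATAC or the DOCA Multiome library the podocyte difference stayed at 2.15 and 2.18 but did not pass (adjusted p = 0.0743 and adjusted p = 0.0703). With all libraries the podocyte share of non-tubular nuclei passed under each other setting, and MyoFib did not without a kit term, after thinning, on the arcsine scale or in a fit of the Finerenone and DOCA libraries alone (adjusted p from 0.0554 to 0.141). MyoFib also failed to pass when either of these, the Multiome library of Finerenone (adjusted p = 0.0689) or a Spironolactone library (adjusted p = 0.0632) was left out. The number of podocytes per endothelial nucleus, which does not depend on macrophages, was 0.475 and 0.374 in Control, 0.479 and 0.386 in Finerenone, and 0.130 and 0.134 in DOCA. Finerenone and Control were nearly equal within each kit (limma difference 0.03, -0.63 to 0.70, adjusted p = 0.904). The Finerenone minus DOCA difference of that ratio was 1.67 (adjusted p = 0.0127, 1 of 8 ratios called, 12.5%), which did not pass without either DOCA, either Finerenone or either Spironolactone library (adjusted p from 0.0502 to 0.173), nor with the 4 libraries of both groups alone (adjusted p = 0.119) or thinned libraries (adjusted p = 0.0707).

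Endothelial cells, which line the capillaries and vessels, took 3.26% and 7.93% of Control nuclei and 2.64% and 6.85% of Finerenone nuclei. The difference was small within each kit (-0.31 and -0.23) and over both (-0.27, -1.41 to 0.88, adjusted p = 0.791). Among non-tubular nuclei they made up 39.0% and 46.7% in Control and 21.7% and 43.5% in Finerenone, where only the scATAC libraries were far apart (-0.69, -1.72 to 0.34, adjusted p = 0.322).

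Macrophages, which clear debris and accumulate in damaged kidney, were the only label of the 12 (8.33%) whose Finerenone libraries both lay above both Control libraries over all nuclei. The label took 0.774% (0.467 to 1.21, 19 nuclei) and 0.608% (0.414 to 0.863, 31 nuclei) of Control nuclei in scATAC and Multiome. It took 2.04% (1.44 to 2.80, 37 nuclei) and 1.08% (0.833 to 1.37, 66 nuclei) of Finerenone nuclei. The log2 odds ratios, 1.40 (0.60 to 2.19) and 0.82 (0.20 to 1.43), were above 0 by more than counting error in both kits. The limma difference was 1.11 (standard error 0.56, 95% interval -0.037 to 2.25, unadjusted p = 0.0575, adjusted p = 0.345), so it did not pass. That standard error is the one shared by all 12 labels. With single libraries left out it ran from 0.39 to 1.83 (adjusted p from 0.0706 to 0.939). Both DOCA libraries had a higher macrophage share than either Finerenone library. Among non-tubular nuclei macrophages made up 9.27% and 3.58% in Control and 16.7% and 6.84% in Finerenone, which overlapped between kits although the odds ratio was alike in both (0.96 and 0.97; limma difference 0.97, -0.86 to 2.79, adjusted p = 0.418).

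Fibroblasts, which make the interstitial matrix, took 2.44% and 4.89% of Control nuclei and 5.72% and 4.63% of Finerenone nuclei. The scATAC kit moved by 1.27 and the Multiome kit by -0.08 in log2 odds, and limma gave 0.60 (-0.55 to 1.74, adjusted p = 0.716). Among non-tubular nuclei they made up 29.3% and 28.8% in Control and 47.1% and 29.4% in Finerenone. These did not overlap, but the Multiome values differed by less than counting error (0.05, -0.24 to 0.34). MyoFib, contractile matrix-producing cells, were rare, with 8 and 31 nuclei in Control and 9 and 33 in Finerenone. They took 0.326% and 0.608% of Control nuclei and 0.495% and 0.538% of Finerenone nuclei (0.21, -0.93 to 1.35, adjusted p = 0.791).

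The place of the nuclei on the map was then compared label by label. The distance between the median coordinates of Finerenone and Control within a kit was set beside the distance between the kits within a group. The groups lay farther apart than the kits for 7 of 12 labels, and the cosine between the shifts of both kits was above 0 for 7 of 12, which was 6 with mean coordinates or after thinning. For Podo (0.06), LOH (0.23) and Mac (0.23) the shifts were nearly at right angles. An exact permutation of groups within kits cannot go below p = 0.5 with these 4 libraries, so these counts are a description.

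PCT had the largest mean shift among the labels with a cosine above 0. The median UMAP_2 of PCT nuclei was -4.91 (scATAC) and -5.06 (Multiome) in Control, and -3.65 and -4.11 in Finerenone. In the DOCA libraries it was -3.35 and -2.88. The Finerenone libraries thus lay between Control and DOCA, shifted towards the side of the iPT body. The distance between Finerenone and Control centres was 1.38 in scATAC and 0.98 in Multiome, against 0.79 and 0.34 between the kits of Finerenone and of Control, and the cosine between both shifts was 0.98. In a limma fit to the median coordinates of all labels, added after the map had been seen, 0 of 24 coordinates passed (0%), 3 of 24 had an unadjusted p under 0.05 (12.5%), and PCT UMAP_2 had the lowest adjusted p, with a difference of 1.103 (0.46 to 1.74, adjusted p = 0.201). Without the Finerenone Multiome library 6 of 24 passed, PCT UMAP_2 among them (1.38, adjusted p = 0.0419), and without the Control scATAC library the 2 iPT coordinates did (both adjusted p = 0.0443).

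**Figure D5:**
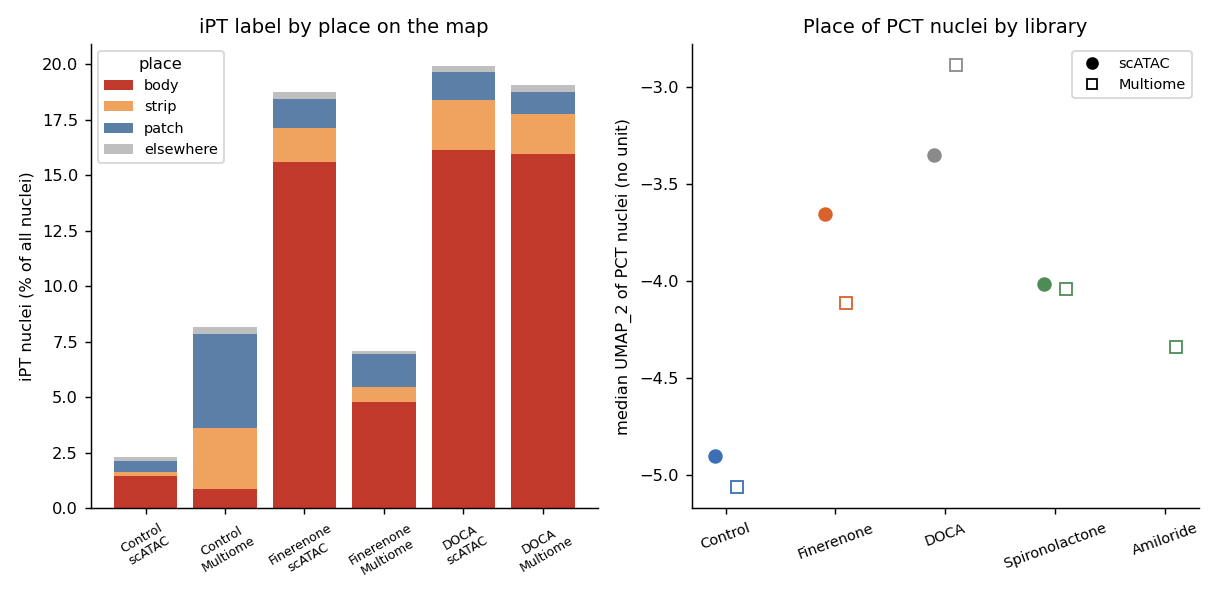
Left, iPT nuclei as a percentage of all nuclei of each library, stacked by their place on the map (body, strip, patch or elsewhere). Right, median UMAP_2 (no unit) of the PCT nuclei of each of the 9 libraries by group, with filled circles for scATAC and open squares for Multiome: the Finerenone values (-3.65 and -4.11) lie above both Control values (-4.91 and -5.06).

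PST did not shift alike. Its Finerenone and Control centres were 1.59 apart in scATAC and 0.25 apart in Multiome, in directions with a cosine of -0.39. The iPT centres were 0.13 apart in scATAC and 2.93 apart in Multiome, while the 2 Control libraries were 3.80 apart from each other. IC shifted the same way in both kits (0.12 and 0.30, cosine 0.99), but by little. Podocyte centres differed by 0.06 and 0.08, the smallest mean distance of the 12 labels, but podocyte nuclei also lay close together. Divided by the spread of each label's nuclei (median distance to their centre), the mean distance was 0.263 for Podo. It was 0.165 for PC, 0.220 for Endo and 0.261 for IC, and higher than that of Podo for every remaining label.

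Where the nuclei of Finerenone and Control lay among the other 5 libraries was read from the labels of their 15 nearest neighbours there. PCT nuclei had 95.2% and 94.9% PCT neighbours in Control and 91.6% and 90.8% in Finerenone (scATAC, Multiome). Their share of iPT neighbours was 0.238% and 0.706% in Control and 3.19% and 1.94% in Finerenone. PST nuclei had 0.166% and 0.670% iPT neighbours in Control and 4.01% and 1.14% in Finerenone. PCT and PST nuclei of both Finerenone libraries thus had a larger share of iPT neighbours than those of either Control library, although the PST centre of the Finerenone Multiome library (UMAP_2 of -5.48) lay no nearer to the iPT body than those of Control (-5.36 and -5.46). The share of iPT neighbours did not overlap between the groups for 4 of the 11 labels other than iPT (36.4%), a count that 2 libraries a side can give without any difference between groups, and it is a description. These were PCT, PST, LOH and IC, and IC were at 1.02% and 1.25% in Control and 5.41% and 2.64% in Finerenone. The share of neighbours with the same label did not overlap for 6 of 12 labels (50%), 5 of them lower in Finerenone. MyoFib was 1 of these 5, with 93.3% and 82.8% MyoFib neighbours in Control and 37.8% and 80.6% in Finerenone. The MyoFib nuclei of the Finerenone scATAC library had 30.4% Fibroblast neighbours, so their label is uncertain. PC had 4.20% and 4.33% DCT neighbours in Control and 8.48% and 6.41% in Finerenone. Macrophages went the other way, with 89.8% and 91.2% macrophage neighbours in Control and 94.2% and 97.0% in Finerenone. The reference libraries include DOCA, which holds many iPT and Mac nuclei, so these shares depend on the composition of that reference.

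Mixing of equal numbers of nuclei of both groups was measured for labels with at least 50 nuclei in each library compared. The map was made after the authors' batch correction, which brings libraries together, so the values do not show how alike the nuclei were before it. Of the 15 nearest nuclei, 50% would come from the own library under full mixing. Between the groups the share was 54.0% (Multiome) to 56.7% (scATAC) for PCT, 55.8% to 60.3% for PST, 52.5% to 52.9% for DCT and 54.3% to 57.4% for LOH. Between the kits it was 51.3% (Control) and 53.4% (Finerenone) for PCT, 54.7% and 57.5% for PST, 54.2% and 59.5% for DCT and 56.0% and 60.2% for LOH. The mean between groups was above the mean between kits for 4 of the 6 labels that had all values, PCT and PST among them, and below it for DCT and LOH. The highest shares between groups were 76.2% for iPT and 71.1% for Podo, both in Multiome. For iPT the scATAC value was 51.5%, and Podo had too few scATAC nuclei for one. For iPT the 2 Control kits were also poorly mixed (70.1%), and the 2 Finerenone kits were not (53.4%). Of the 151 podocyte nuclei of the Control Multiome library 9 lay beside the iPT patch or strip, and 6.49% of the reference neighbours of its podocytes carried the iPT label. The other 3 libraries had 0 of 38 (Control scATAC), 0 of 23 (Finerenone scATAC) and 0 of 162 (Finerenone Multiome) podocyte nuclei there, which allows shares of up to 7.89%, 13.04% and 1.85%.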

How the data were processed

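The authors prepared nuclei from whole kidney, aligned the snATAC-Seq reads to rn6 with Cell Ranger ATAC 1.1.0, merged, filtered, batch corrected (Harmony) and clustered the nuclei in Signac 1.3.0, and named clusters from accessibility at marker genes. The supplementary methods name another number of merged data sets than the 9 used here. Coordinates on the UMAP were deposited as a score without unit, and the deposited metadata hold library codes, treatments and cell type labels, which are names. The deposited library codes do not match the sample titles, so each code was given to a sample by its treatment and by its kit, and kits were inferred from shared barcodes. The values within kits rest on that mapping. No nuclei were filtered and no doublet caller was run. 0 columns were left unused.

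Nuclei were counted per library and label (Python 3.11.15, pandas 2.3.3). The log2 odds with 0.5 added to each count were fitted with limma 3.58.1 in R 4.3.3 over 9 libraries (group and kit as terms, Benjamini-Hochberg adjustment within a family of 12 labels, 12 labels within compartments, 3 compartments or 8 ratios, threshold 0.05). Share intervals are exact Clopper-Pearson 95% intervals and, like the log2 odds ratio intervals within a kit, cover counting error only. Neighbours were found with scikit-learn 1.9.0. The fits were tested on simulated data with larger changes than found here, the same spread for every label and labels drawn independently. That test therefore does not show how well the fits detect changes of the size found here. The alternatives were no kit term, only the 4 libraries, other variance moderation, thinning to 1817 nuclei, a pseudocount of 1, other scales, 2 compartments, 30 neighbours, mean coordinates and each library left out. All 12 labels were named, with full statistics for iPT, PST, PCT, Mac and Podo and for any label past the threshold. IC, LOH, Fibroblast and the PC per IC ratio were described in full after their values were seen. The comparison, the labels and the tests were chosen with earlier results of these data known.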

Additional observations from a re-analysis of the deposited data

How the results depend on the processing

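None of the settings that keep all 4 Finerenone and Control libraries called any label, compartment or ratio between Finerenone and Control. With all libraries, DCT over all nuclei turned from 0.03 to -0.13 (thinned), -0.012 (arcsine) and -0.20 (centred log-ratio), MyoFib from 0.21 to -0.035 (centred log-ratio) and MyoFib within its compartment from -0.0074 to 0.23 (thinned). The centred log-ratio moved the median of the 12 differences by -0.24. With a library left out, a lone library was assumed to vary like the other groups, and the ranges were: over all nuclei, LOH 0.13 to 1.13, IC -1.01 to -0.39, PCT -0.82 to 0.38, PST -0.77 to 0.37, DCT -0.84 to 0.90, PC -0.28 to 1.01, Endo -0.65 to 0.12, Fibroblast -0.096 to 1.29, MyoFib -0.23 to 0.64 and Podo -0.48 to 0.030; within compartments, PST -0.77 to 0.23, PCT -0.57 to -0.017, iPT -0.042 to 3.05, LOH 0.36 to 0.92, DCT -0.63 to 0.17, PC -0.020 to 0.31, Endo -1.31 to -0.068, Fibroblast 0.13 to 1.01, MyoFib -0.061 to 0.046, Mac 0.16 to 1.77 and Podo -0.87 to -0.15; proximal tubule -0.93 to 0.60, distal nephron -0.52 to 0.93 and non-tubular -0.19 to 0.67; iPT per PST -0.021 to 3.08, iPT per PCT -0.068 to 3.05, PCT per PST -0.13 to 0.20, DCT per LOH -1.005 to -0.074, MyoFib per Fibroblast -0.60 to -0.13, Podo per Endo -0.11 to 0.17 and Mac per Fibroblast -0.47 to 1.51. The number called ran from 0 to 1 over all nuclei and within compartments, from 0 to 3 compartments, from 0 to 2 ratios and from 0 to 6 coordinates. These counts rose without the Control Multiome library (all but the coordinates), without the Finerenone Multiome library (iPT over all nuclei, 6 coordinates) and without the Control scATAC library (2 coordinates). The cause was not tested. Between Finerenone and DOCA, a contrast added after the data were seen, 2 labels over all nuclei (Mac and Podo), 2 within compartments and 1 ratio passed. With a library left out these counts ran from 0 to 4, 0 to 6 and 0 to 2, and under other settings from 0 to 2, 1 to 4 and 0 to 3. Labels whose groups lay farther apart than their kits numbered 7, and 5 after thinning. For the 3 compartments the variance setting was robust without a trend. Control and Finerenone share no replicate number in the labels, so their libraries were matched by kit alone, through the kit term, also in the fit of the 4 libraries. With 2 libraries a side, the spread between libraries limited precision, and so did nuclei for MyoFib, Mac and Podo in scATAC and for IC in Finerenone scATAC, which rested on 8 to 38 nuclei.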
